A study of Mus musculus with 8 samples.

Results

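The neurotrophins and their receptors were followed as 6 genes, Bdnf, Ntf3, Ntrk2, Ntrk3, Ngfr and Vgf, out of 18939 genes measured by translating ribosome affinity purification followed by sequencing (TRAP-Seq). They were found by gene symbol in the count table, and where a symbol had several transcript rows the row with the highest total was taken. All 6 had counts in all 8 libraries. Mice carried Cre in the locus of the mu-opioid receptor gene (OPRM1cre) and a Cre-dependent EGFP-L10a ribosomal protein on a C57Bl/6J background, in both groups. The tag therefore marks cells by Oprm1 expression, present or past, because recombination is permanent. The morphine group drank morphine, up to 0.5 mg/ml in 0.2% saccharin, for 11 days, and the control group (control drinking water in the labels) drank 0.2% saccharin by the study's methods. Mice were 8 to 12 weeks old at the start. The paraventricular nucleus of the thalamus (PVT) was taken by gross dissection, and by the study's methods tissue of 2 mice matched for sex went into each library. There were 4 control libraries (replicates 1 and 2 male, 5 and 6 female) and 4 morphine libraries (replicates 3 and 4 male, 7 and 8 female).

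Neurotrophins are small secreted growth factors that keep neurons alive during development and adjust synapses in the adult. They are made as precursors, sorted into secretory vesicles and cleaved, and the mature dimers bind tyrosine kinase receptors of the Trk family: brain-derived neurotrophic factor (Bdnf) binds TrkB (Ntrk2) and neurotrophin-3 (Ntf3) binds TrkC (Ntrk3). All of them, and the uncleaved precursors with higher affinity, bind the p75 receptor (Ngfr), which has no kinase. Vgf encodes a secreted neuropeptide precursor of the granin family whose transcription is induced by neurotrophins. In the forebrain, Bdnf transcription follows neuronal activity through several alternative promoters, and BDNF release onto TrkB is best known for its part in synaptic strengthening.

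Counts per library lay between 37081346 and 43311792 in the control group and between 31151106 and 47582947 in the morphine group. Control replicate 5, labelled female, had reads of 4 Y-linked genes, between 28.7% and 35.8% of the male mean, against 0 to 2 counts in the remaining libraries labelled female, so the sex of its pool is uncertain. Markers of midline thalamic neurons summed to between 2120 and 2636 CPM (reads of a gene scaled to library size) in control and 1607 to 2813 CPM in morphine libraries. Markers of other tissue were present too. The 13 choroid plexus markers summed to between 43.4 and 161 CPM in control and 218 to 681 CPM in morphine libraries, with no overlap, and 9 of the 13 were higher in every morphine library. For the 11 markers of telencephalic pyramidal neurons the sums were 190 to 481 CPM and 382 to 767 CPM, and for the 10 hippocampal markers 179 to 248 CPM and 219 to 287 CPM. None of these markers was at 0 in every library, and Kcnj13 alone among them was at 0 in any, in control replicate 1. None of them had an adjusted P value under 0.05. In such bulk RNA, fewer cells of a type and less RNA per cell cannot be told apart.

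Bdnf lies on chr2:109674700-109727043 (GRCm38, plus strand) and Ntf3 on chr6:126101412-126166772 (minus strand). The windows of 250 bases before annotated starts were read for both, since these were the members whose groups did not overlap. The table of RefSeq windows used here (GRCm38.p6) gave 7 for Bdnf, 2 for Ntf3, and 1 each for Ntrk2 and Ngfr, and Ntrk3 and Vgf were not analysed. Of the starts of the 4 counted Bdnf rows, 109674700 and 109692436 had a window, and 109675897 and 109693563 were not analysed. Searched on both strands were TGACGTCA, the cyclic AMP response element (CRE) bound by CREB; its variant TCACGTCA, read TGACGTGA on the other strand; the E-box CACGTG; and TGACTCA, the AP-1 site bound by Fos and Jun proteins. The CRE and its variant share ACGTCA, and the variant shares CACGT with the E-box. The variant was found in 1 Bdnf window, 38 bases before the start at 109692436, and the E-box in 1 Ntf3 window, 231 bases before the start at 126166744. The Ntf3 row used starts at 126164960, and the window before that start held none of the motifs, while the starts of the other Ntf3 rows, 126166715 and 126166910, were not analysed. The windows with a motif are printed with its letters in capitals, 5′ to 3′ on the strand of the gene.
Bdnf, chr2:109692186-109692435, plus strand: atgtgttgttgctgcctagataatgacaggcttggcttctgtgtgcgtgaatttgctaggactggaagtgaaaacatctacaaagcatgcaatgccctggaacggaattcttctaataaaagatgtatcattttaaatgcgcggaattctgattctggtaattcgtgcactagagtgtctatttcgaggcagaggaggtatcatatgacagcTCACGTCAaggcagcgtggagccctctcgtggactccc
Ntf3, chr6:126166745-126166994, minus strand: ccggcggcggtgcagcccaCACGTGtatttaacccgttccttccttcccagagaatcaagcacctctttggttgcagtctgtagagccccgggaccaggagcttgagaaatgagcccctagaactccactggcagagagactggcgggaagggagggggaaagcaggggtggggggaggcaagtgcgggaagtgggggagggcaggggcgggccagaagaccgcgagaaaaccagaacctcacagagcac
Of all 32851 windows of this length, 0.35% held the CRE variant, 6.02% the E-box, 1.55% the CRE and 4.46% the AP-1 site. The CRE and the AP-1 site were in none of the 11 windows read for the members. A match of letters is a description of the sequence and shows no binding in these cells.

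Levels of different genes were compared per kilobase of the counted transcript (RPKM), to which reads of other transcripts on shared exons also contribute. In control libraries Vgf had the highest level, 34.2 ± 15.8 RPKM (SD, n = 4), at or above that of 87.5% of the 18500 genes with a known length. Ntrk2 followed with 14.0 ± 2.02 RPKM and Ntrk3 with 6.37 ± 1.25 RPKM. Of the ligands, Bdnf was at 3.32 ± 0.454 RPKM, near the middle of all genes (49% at or below it), and Ntf3 at 0.533 ± 0.215 RPKM. Ngfr was lowest, at 0.307 ± 0.165 RPKM. The receptor rows used stood above those of their own ligands, 4.23-fold for Ntrk2 over Bdnf (3.51 to 4.70 in single libraries) and 12-fold for Ntrk3 over Ntf3 (8.72 to 21.9). Each neighbour in this order was higher than the next in 4 of 4 control libraries, but the ranges of Ntf3 and Ngfr overlapped. The place of Ntrk3 depends on the row. Its full-length row has similar counts over an exonic length of 19703 bases as against 3977, and gave 1.23 ± 0.134 RPKM in control libraries, below Bdnf in 4 of 4 and 2.31-fold above Ntf3, and 1.66 ± 0.529 RPKM in morphine libraries, 0.974 times the level of Ntf3. The truncated row of Ntrk2, at 16.6 ± 4.23 RPKM in control libraries, stayed above Bdnf in all of them. With the rows used, the order of the means was the same in morphine libraries, where Bdnf (5.72 ± 1.04 RPKM) came closer to Ntrk3 (9.41 ± 2.82 RPKM) and their ranges overlapped, with Ntrk3 above Bdnf in 3 of 4 libraries. Ntf3 (1.70 ± 0.395 RPKM) and Ngfr (0.683 ± 0.774 RPKM) overlapped there as well. There the receptor rows stood 2.98-fold above Bdnf (2.14 to 3.80 in single libraries) and 5.52-fold above Ntf3 (3.92 to 7.94), so that the ratio of Ntrk3 to Ntf3 did not overlap between the groups and that of Ntrk2 to Bdnf did.

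**Figure D1:**
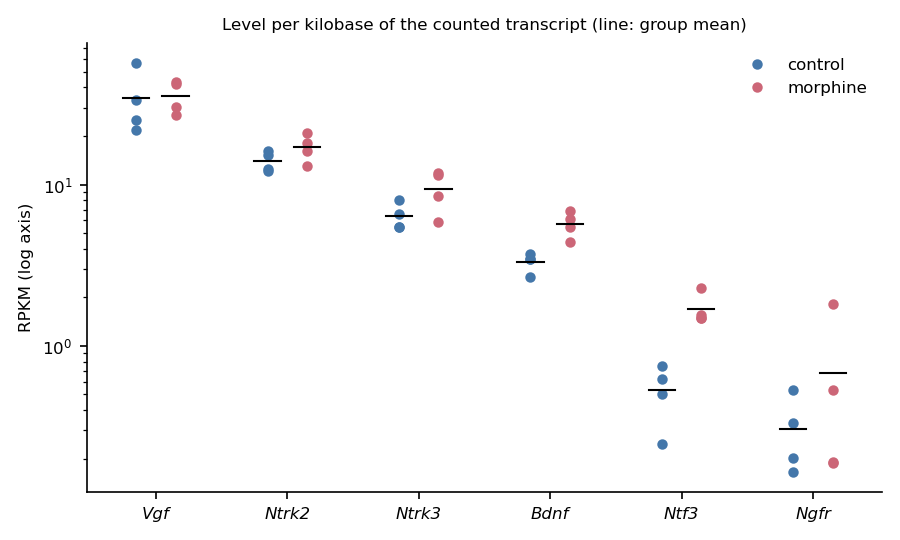
Level of each member in RPKM (log axis) in the 4 control (blue) and 4 morphine (red) libraries, with lines at the group means. Vgf and Ntrk2 sit highest in both groups, Ntf3 and Ngfr lowest, and only for Bdnf and Ntf3 do all red points lie above all blue points.

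Whether chronic morphine changed these genes was tested with edgeR's quasi-likelihood test over all 18939 genes, with Benjamini-Hochberg adjustment. None of the 6 members had an adjusted P value under 0.05, the threshold that 0.164% of all genes passed upward and 0.0317% downward. Without adjustment 3 of 6 members, Bdnf, Ntf3 and Ntrk3, had a P value under 0.05, all with higher levels in the morphine group, as against 6.79% of all genes upward and 5.31% downward. This count was 2 with the telencephalic score, 0 with the choroid plexus score and 0 with the hippocampal score of marker genes in the model, and between 2 and 4 with 1 library left out (2 without control replicate 1 or 5 or morphine replicate 4). The number of all genes at this threshold moved as well. It was 2292 with condition only, and 1198, 612 and 906 with the telencephalic, choroid plexus and hippocampal scores. With 1 library left out it was between 1433 (without control replicate 1) and 3476 (without control replicate 2). The groups did not overlap for 2 of 6 members, Bdnf and Ntf3, both higher with morphine, as against 3.34% of genes that were higher and 3.21% that were lower throughout. DESeq2, the program of the study's own test and run here as an alternative, called the same 2 members, beside 1.70% of all genes that it called upward. All 6 log2 fold changes were above 0, with a median of 0.67, while the median of all genes was 0.01. The samples are separate pools of mice, so the tests set the group difference against the variation between pools and not between single mice.

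**Figure D2:**
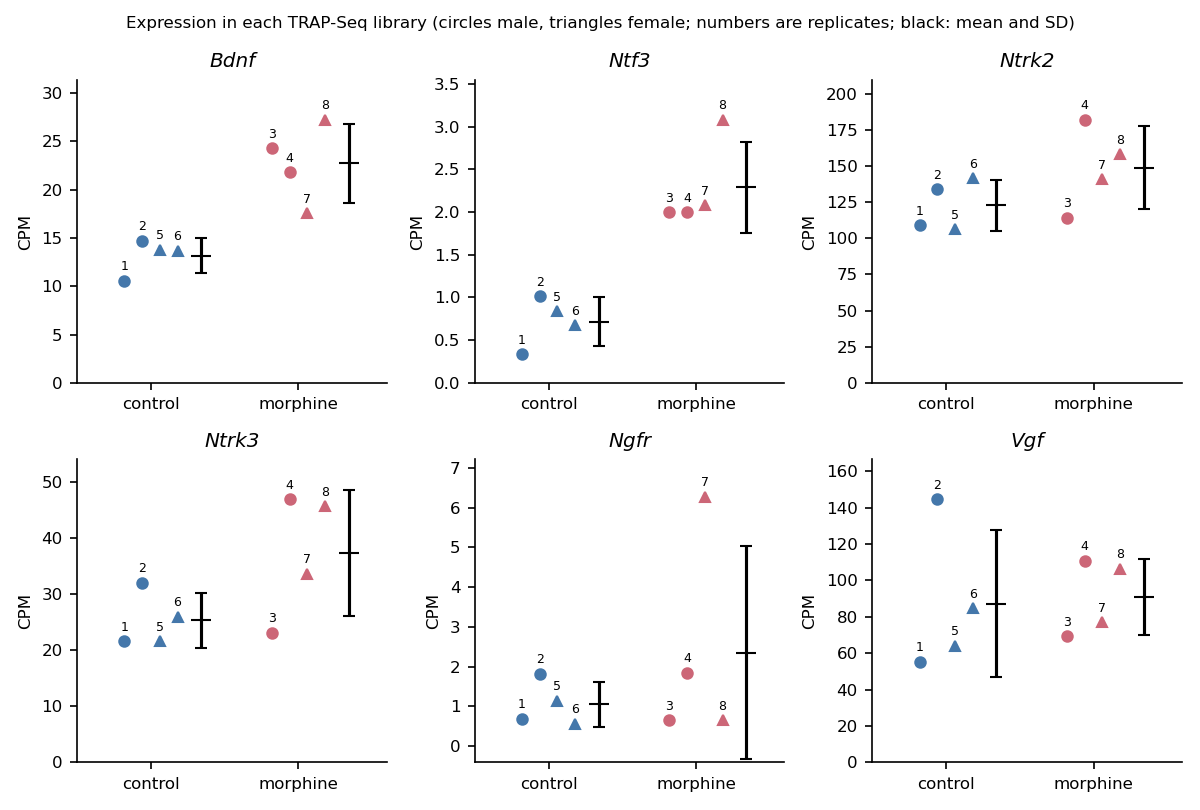
Expression in CPM in each library (circles male, triangles female, numbers are replicates) with mean and SD of 4 libraries per group. Bdnf and Ntf3 separate the groups, the Trk receptors overlap, Ngfr is high in morphine replicate 7 alone and Vgf in control replicate 2.

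Bdnf, the ligand of TrkB, had 10.6, 14.7, 13.8 and 13.7 CPM in control replicates 1, 2, 5 and 6. In morphine replicates 3, 4, 7 and 8 it had 24.3, 21.8, 17.5 and 27.3 CPM. Every morphine library was above every control library, with the smallest gap between morphine replicate 7 and control replicate 2. The means were 13.2 ± 1.80 and 22.7 ± 4.12 CPM (SD, n = 4), a 1.72-fold difference. On the log2 scale this was 0.79 with a standard error of 0.15, and the edgeR P value of 0.000308 was the 87th lowest of all genes but had an adjusted value of 0.0660. The exact two-sided permutation test of this gene alone gave P = 0.0286, the smallest value that 4 libraries against 4 can give. In DESeq2 the log2 fold change was the same, 0.79, and its adjusted P value was 0.000464. Leaving out any 1 library gave edgeR log2 fold changes between 0.68 and 0.87 with adjusted P values between 0.0600 and 0.203.

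The table holds 4 Bdnf transcripts that differ in their first exon, beginning at 109674700, 109675897, 109692436 and 109693563, and share the exon that encodes nearly all of the protein. Their totals over the libraries lay between 5510 and 5594 counts, the lowest at 98.5% of the highest, so nearly all reads fell on the shared exon and were counted on each. The log2 fold changes of the 4 rows were between 0.77 and 0.79. Which promoter the Bdnf transcripts came from cannot be read from these counts. The antisense gene Gm45346 overlaps Bdnf, and the counting is not stated to use the strand.

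Ntf3, the ligand of TrkC, had the largest fold difference of the members at a low level. Control replicates 1, 2, 5 and 6 had 0.333, 1.01, 0.837 and 0.679 CPM, from 13, 45, 35 and 25 counts. Morphine replicates 3, 4, 7 and 8 had 2.00, 2.00, 2.08 and 3.08 CPM, from 71, 66, 64 and 150 counts. The groups did not overlap, and the exact Poisson 95% intervals of the nearest libraries, 0.739 to 1.36 CPM in control replicate 2 and 1.56 to 2.52 CPM in morphine replicate 3, did not meet either. Such intervals cover counting error only, as PCR copies are not marked. The means were 0.716 ± 0.289 and 2.29 ± 0.531 CPM (SD, n = 4), a 3.19-fold difference. By edgeR the log2 fold change was 1.67 ± 0.32 (SE), its adjusted P value 0.0642, the 70th lowest P value of all genes. The exact permutation test gave P = 0.0286, again the smallest it can give. The adjusted P value was 0.0392 with sex in the edgeR model and 0.000135 in DESeq2, the former with control replicate 5 taken as female. Without any 1 library the log2 fold change lay between 1.42 and 1.89 and the edgeR adjusted P value between 0.0507 and 0.191. The 3 Ntf3 rows had log2 fold changes between 1.66 and 1.67, and no annotated gene overlaps Ntf3.

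Markers of choroid plexus, telencephalic and hippocampal cells were higher in morphine libraries in part, as Bdnf and Ntf3 were. The summed CPM did not overlap for choroid plexus and overlapped for the other two lists. The mean log2 level, the score used in the models, did not overlap for choroid plexus (-0.35 to 1.93 in control, 2.16 to 3.48 in morphine libraries) or hippocampal markers (1.71 to 2.81 and 3.08 to 3.95), and overlapped for telencephalic markers (2.67 to 4.67 and 4.13 to 5.22). In the telencephalic and hippocampal lists 2 of 11 and 4 of 10 markers did not overlap. Among these markers were Neurod6, a transcription factor of cortical and hippocampal pyramidal cells, at 5.13 ± 5.78 CPM in control and 50.8 ± 16.5 CPM in morphine libraries, and Tdo2, expressed in dentate granule cells, at 0.244 ± 0.202 and 1.34 ± 0.543 CPM. Ttr, the transthyretin gene of the choroid plexus, was at 17.0 ± 19.1 and 174 ± 107 CPM. Other markers of the same lists did not differ in this way: Prox1, also of dentate granule cells, was at 143 ± 21.0 and 124 ± 14.8 CPM, Lhx2 at 43.5 ± 6.94 and 42.5 ± 3.56 CPM, and the choroid plexus marker Prlr at 17.0 ± 4.60 and 12.8 ± 1.98 CPM. Prox1 thus made up much of the hippocampal sum, which had means of 218 CPM in control and 254 CPM in morphine libraries. Whether Prox1 and Lhx2 came from hippocampal or telencephalic cells here was not tested. A log2 fold change above 0 was seen for 10 of 11 telencephalic, 8 of 10 hippocampal and 12 of 13 choroid plexus markers. The same held for 11 of 11 markers of oligodendrocytes and their precursors, 8 of 10 of astrocytes, 6 of 9 of medial habenula, 3 of 9 of microglia, 2 of 10 of endothelial and mural cells, 2 of 6 of leptomeningeal cells, 3 of 9 of hypothalamic neurons and 1 of 8 of midline thalamic neurons. The genes named here were chosen after their values were seen. With the mean log2 level of the telencephalic markers in the edgeR model, the log2 fold change was 0.75 for Bdnf and 1.59 for Ntf3. With that of the choroid plexus markers it was 0.40 and 0.92. The hippocampal score, added after the data were seen, left 0.62 and 1.31. No adjusted P value of either gene was under 0.72 in these models, in which at most 1 gene in all was called. The part of such cells in the Bdnf and Ntf3 values was not tested. The summed markers overlapped between the groups for the other cells as well, and were 537 to 656 CPM against 475 to 682 CPM for astrocytes, 125 to 1247 against 578 to 1548 CPM for oligodendrocytes and their precursors, and 7.08 to 16.6 against 7.83 to 15.6 CPM for microglia. For endothelial and mural cells they were 6.38 to 18.2 and 7.01 to 10.3 CPM, for leptomeningeal cells 6.13 to 42.8 and 9.06 to 22.5 CPM, and for hypothalamic neurons 21.8 to 64.3 and 27.4 to 72.1 CPM. In the astrocyte sum, with a mean of 586 CPM in control libraries, Slc1a2 and Aldoc alone had means of 314.5 and 242 CPM. That sum therefore says little of the other astrocyte markers. Single markers within the sums of these lists did not all overlap. Sim1, a transcription factor of hypothalamic neurons, was at 4.47 to 8.46 CPM in control and 1.66 to 3.38 CPM in morphine libraries (edgeR adjusted P = 0.0590), and the leptomeningeal marker Lum at 0.0239 to 0.109 and 0.121 to 0.225 CPM. The hypothalamic peptide genes Trh and Cartpt had log2 fold changes of -2.09 and 1.91 and overlapped. Oprm1, which drives the Cre, was at 16.8 to 32.3 CPM in control and 14.0 to 18.4 CPM in morphine libraries.

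Ntrk2, on chr13:58806472-59133970 (plus strand), encodes TrkB. Its full-length row had 109, 134, 106 and 142 CPM in control replicates 1, 2, 5 and 6, and 114, 182, 141 and 158 CPM in morphine replicates 3, 4, 7 and 8. The groups overlapped, with morphine replicate 3 below 2 of the control libraries. The log2 fold change was 0.28 ± 0.15 (SE; adjusted P = 0.495 by edgeR), and the exact permutation P was 0.171. A second row is the truncated receptor that ends shortly after the membrane and lacks the kinase, with a coding length of 1428 bases as against 2463. It had 50.6 ± 12.9 CPM in control and 66.5 ± 14.5 CPM in morphine libraries, or 0.39 ± 0.19 (SE) as a log2 fold change (adjusted P = 0.456 by edgeR). Truncated TrkB is the form that astrocytes are known to make. Counts on the truncated row were 0.408 ± 0.0549 times those on the full-length row in control and 0.445 ± 0.0250 times in morphine libraries (exact permutation P = 0.257). Reads on the exons that both share are counted on both rows, so the ratio is not that of the 2 forms. Among the genes that overlap Ntrk2, Gm47423 and 4930415C11Rik are antisense.

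Ntrk3, on chr7:78179986-78581034 (minus strand), encodes TrkC, and its most counted row is a form without the kinase, with a coding length of 1836 bases. It had 21.6, 32.1, 21.6 and 26.0 CPM in control replicates 1, 2, 5 and 6, and 23.2, 47.0, 33.7 and 45.7 CPM in morphine replicates 3, 4, 7 and 8. In 3 morphine libraries Ntrk3 was above all control libraries, and morphine replicate 3 was within their range. The means were 25.3 ± 4.96 and 37.4 ± 11.2 CPM (SD, n = 4). By edgeR the log2 fold change was 0.56 ± 0.21 (SE), with P = 0.0223 before and 0.318 after adjustment, and the exact permutation P was 0.114. The full-length row, with a coding length of 2475 bases, had a log2 fold change of 0.43 ± 0.21 (SE; adjusted P = 0.448 by edgeR). The counts on the truncated row were 1.04 ± 0.0989 times those on the full-length row in control and 1.15 ± 0.0665 times in morphine libraries, and this ratio overlapped between the groups (exact permutation P = 0.0857, one of 2 such ratios tested). Ntrk3 overlaps 4 other annotated genes, of which 4921513I08Rik and Gm9885 are antisense. With the choroid plexus score in the model, the log2 fold changes of the Trk receptors were -0.15 ± 0.21 (SE) for Ntrk2 and -0.03 ± 0.33 (SE) for Ntrk3. They were -0.12 and 0.16 with the telencephalic and 0.07 and 0.37 with the hippocampal score, and the log2 fold change of Ntrk2 was 0.17 without morphine replicate 4. The choroid plexus and hippocampal scores did not overlap between the groups, so these models can hardly separate them from condition.

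Ngfr, on chr11:95568818-95587698 (minus strand), encodes p75, which in the adult forebrain is best known from cholinergic neurons of the basal forebrain. It had 0.692, 1.82, 1.15 and 0.570 CPM in control replicates 1, 2, 5 and 6, from 21 to 81 counts. In morphine replicates 3, 4, 7 and 8 it had 0.647, 1.85, 6.27 and 0.658 CPM, from 23, 61, 193 and 32 counts. A single morphine library, replicate 7, stood apart, and the others lay within the control range or, for replicate 4, barely above it. The log2 fold change was 1.12 ± 0.67 (SE; adjusted P = 0.552 by edgeR, exact permutation P = 0.514), and without morphine replicate 7 it was -0.05. It was 0.50 by limma-voom, 2.25 with the choroid plexus score and 2.12 with the hippocampal score in the edgeR model. The same library was the highest for several genes of cholinergic neurons, which were looked at after this value was seen. Chat, the enzyme that makes acetylcholine, had 15.9 CPM in morphine replicate 7 and 2.73 to 7.78 CPM in the other 7 libraries. The choline transporter Slc5a7 had 13.6 CPM there and 3.30 to 7.24 CPM elsewhere, and the vesicular acetylcholine transporter Slc18a3 had 2.92 CPM there and 0.692 to 2.12 CPM elsewhere. Cholinergic neurons of the medial habenula share Chat, Slc5a7 and Slc18a3. The 9 medial habenula markers, these 3 included, summed to 185 CPM in morphine replicate 7 and to 139 to 234 CPM in control libraries, and 3110047P20Rik alone made up 105 CPM of the former. The part of cholinergic cells in the Ngfr value was not tested.

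Vgf, on chr5:137025301-137033351 (plus strand), had the smallest difference. Control replicates 1, 2, 5 and 6 had 55.4, 145, 64.1 and 84.7 CPM, and morphine replicates 3, 4, 7 and 8 had 69.3, 111, 77.0 and 107 CPM. Control replicate 2 had the highest value of all libraries, and the morphine libraries lay inside the control range. The log2 fold change was 0.06 ± 0.27 (SE; adjusted P = 0.953 by edgeR, exact permutation P = 0.743). Without control replicate 2 it was 0.42, with an unadjusted P of 0.0497 and an adjusted P of 0.269 (edgeR), and it was below 0 without control replicate 1 (-0.12) or 5 (-0.07) or morphine replicate 4 (-0.05) or 8 (-0.03). It was 0.13 by limma-voom, and -0.21, -0.71 and 0.29 with the telencephalic, choroid plexus and hippocampal scores in the edgeR model.

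**Figure D3:**
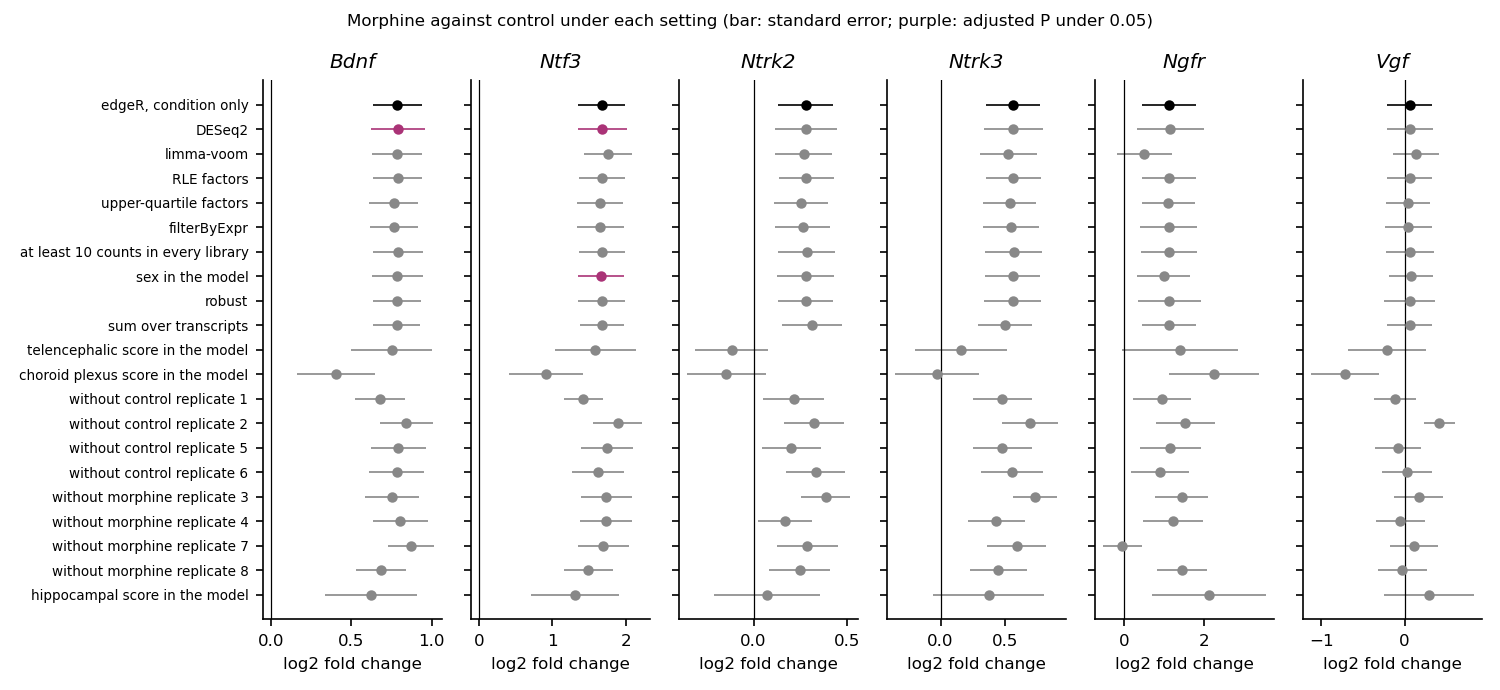
Log2 fold change of each member, morphine against control, with its standard error (bars) under each way of processing; purple marks an adjusted P value under 0.05. Bdnf and Ntf3 stay above 0 in all 20 alternatives, while the Trk receptors, Ngfr and Vgf cross 0 in at least 1.

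No member was called between male and female libraries. With condition in the model, the log2 difference between female and male libraries was 0.04 for Bdnf, 0.28 for Ntf3, 0.02 for Ntrk2, 0.00 for Ntrk3, 0.49 for Ngfr and -0.20 for Vgf, with an adjusted P value of 1.00 for each by edgeR. This comparison called 1 of all genes, 0.00528%, and 587 without adjustment. For Bdnf and Ntf3 every morphine library was above every control library, so the same holds within each sex and adds no further support. Morphine and control libraries had 21.8 to 24.3 and 10.6 to 14.7 CPM of Bdnf in males, and 17.5 to 27.3 and 13.7 to 13.8 CPM in females. For Ntf3 the values were 2.00 and 0.333 to 1.01 CPM in males, and 2.08 to 3.08 and 0.679 to 0.837 CPM in females. In the test of the interaction of sex and condition, the difference between the female and the male log2 fold changes was -0.16 for Bdnf, with a standard error of 0.33, and 0.22 for Ntf3, with a standard error of 0.65. For Ngfr it was 2.01 with a standard error of 1.20, and morphine replicate 7 is a female library. No member and no gene, 0.00% of all, passed that test, with 2 libraries in each combination of sex and condition by the labels. Since control replicate 5 holds Y-linked reads, the female control group may rest on replicate 6 alone, at 13.7 CPM for Bdnf and 0.679 CPM for Ntf3, and the comparisons by sex are uncertain to that extent. An unadjusted P value under 0.05 was seen for 325 genes there.

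The other genes of the pathway were taken as 7 lists with 139 genes, all of them measured. Over all 139 the median log2 fold change was 0.01, 11 were higher and 15 lower at an unadjusted P value under 0.05, and 1, Fos, was called after adjustment by edgeR. The members had a median of 0.67. Each count of list genes that follows stands against the shares of all genes, of which 6.79% were higher and 5.31% lower without adjustment, 0.164% and 0.0317% were called higher and lower, and 3.34% and 3.21% were higher or lower without overlap.

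**Figure D4:**
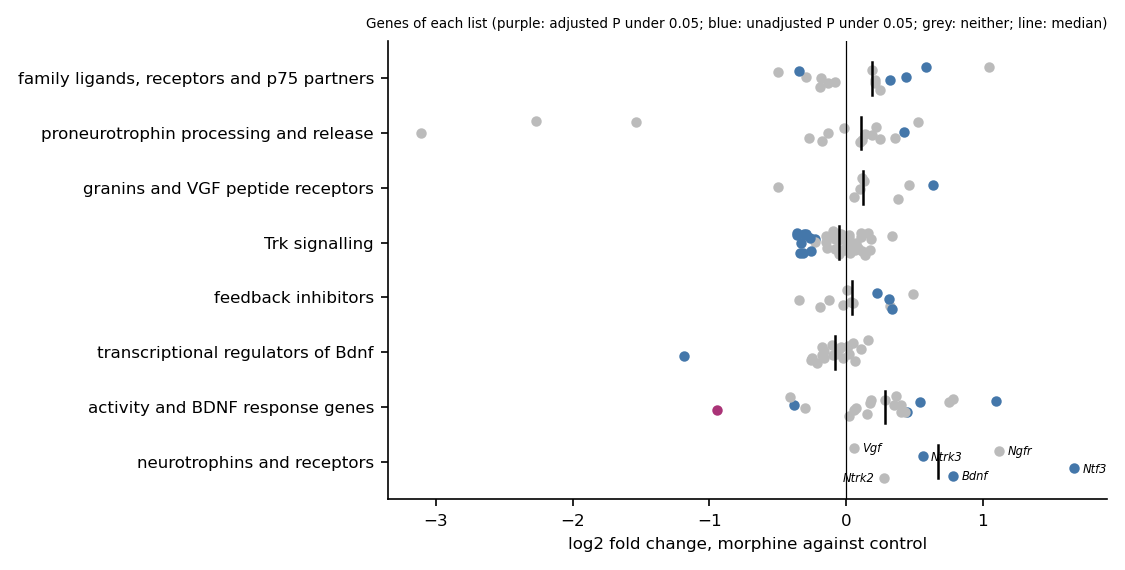
Log2 fold change, morphine against control, of each gene of the 7 lists and of the members (bottom row), with a line at the median of each list. Purple marks an adjusted and blue an unadjusted P value under 0.05: Fos, at -0.94, is the single purple gene, and all 11 blue genes of Trk signalling lie below 0.

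Of the 15 other family ligands, receptors and partners of p75, 3 were higher and 1 lower without adjustment, and none was called. The lowest P value was that of Sort1, sortilin, which sorts neurotrophin precursors into the regulated pathway and binds them together with p75 at the surface. Sort1 was at 198 ± 31.0 CPM in control and 297 ± 58.8 CPM in morphine libraries, overlapping in 1 morphine library (log2 fold change 0.59, edgeR adjusted P = 0.161). Maged1, an adaptor that binds the intracellular part of p75, was at 746 and 588 CPM (log2 fold change -0.34, edgeR adjusted P = 0.345). Ntf5, the ligand neurotrophin-4, was at the edge of detection with 0.0256 to 0.247 CPM.

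Processing and release genes had 1 of 16 higher and 0 lower without adjustment. Cpe, carboxypeptidase E, which trims peptides and acts in the sorting of the BDNF precursor, was at 342 and 459 CPM (log2 fold change 0.42, edgeR adjusted P = 0.363), and Cadps, a priming factor for dense-core vesicles, at 594 and 492 CPM (-0.27, edgeR adjusted P = 0.446). Of the 8 granins and receptors of VGF peptides, 1 was higher without adjustment. This was Chgb, chromogranin B, at 35.3 and 54.9 CPM (log2 fold change 0.64, edgeR adjusted P = 0.342), followed by the granin Scg3 at 43.1 and 59.3 CPM (0.46, edgeR adjusted P = 0.423).

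Among the genes that carry the Trk signal inside the cell, which include the Ras, PI3-kinase and phospholipase branches, 16 of 47 had a log2 fold change above 0, and the median was -0.05. At an unadjusted P value under 0.05, 0 were higher and 11 lower, as against 5.31% of all genes that were lower, and none of them was called after adjustment. Gab2, a docking protein that links receptor tyrosine kinases to PI3-kinase, was lower in every morphine library, at 47.1 ± 3.75 and 36.8 ± 0.843 CPM (SD, n = 4; log2 fold change -0.35, edgeR adjusted P = 0.146). The adaptor Shc2 was the other gene of this list without overlap, at 52.8 ± 2.55 and 45.2 ± 1.63 CPM, and is named because of it. Irs1, a docking protein better known from insulin signalling, was at 85.1 and 69.5 CPM (log2 fold change -0.29, edgeR adjusted P = 0.297). Of 12 feedback inhibitors, 3 were higher and 0 lower without adjustment, with a median of 0.05. The MAP kinase phosphatases Dusp5, at 10.8 and 13.7 CPM (log2 fold change 0.34, edgeR adjusted P = 0.369), and Dusp7, at 60.6 and 75.2 CPM (0.31, edgeR adjusted P = 0.377), had the lowest P values of these.

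Of 20 regulators of Bdnf transcription, 0 were higher and 1 lower without adjustment. That one was Npas4, an activity-induced transcription factor that binds Bdnf promoters, with 20.1, 14.9, 8.49 and 16.4 CPM in control and 3.85, 8.51, 9.25 and 4.81 CPM in morphine libraries. Only control replicate 5 reached into the morphine range, and the log2 fold change was -1.19 ± 0.31 (SE; adjusted P = 0.152 by edgeR). Of 21 response genes, 3 were higher and 2 lower without adjustment, with a median of 0.29. Fos, the immediate early gene, fell from 89.9 ± 10.6 to 46.8 ± 6.02 CPM (SD, n = 4) with no overlap, which is -0.94 ± 0.12 (SE) on the log2 scale (adjusted P = 0.0176 by edgeR). It was called in 13 of the 20 alternatives, with log2 fold changes between -1.04 and -0.63 over all of them. The call was lost with any of the 3 marker scores in the model (adjusted P of 0.645 or more) and without control replicate 1 or morphine replicate 4, 7 or 8 (adjusted P of 0.0551 to 0.0905). Inhba, an activin subunit induced by synaptic activity, was higher in every morphine library, at 0.822 ± 0.274 and 1.78 ± 0.697 CPM (edgeR, adjusted P = 0.203), and is named as the other gene of this list without overlap. The members and these genes were measured in the same libraries and share their normalization.

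The genes whose log2 CPM over the 8 libraries was most like that of a member were taken from 14556 genes by Pearson's r, which is given as a description, since the points share library, depth and condition. For Bdnf they were Fam19a1 (r = 0.984), which encodes a secreted peptide and was at 11.8 CPM in control and 23.6 CPM in morphine libraries, the Wnt co-receptor Lrp6 (0.980) and Lhfpl2 (0.965). For Ntf3 they were 2610017I09Rik (r = 0.982), at 6.14 and 12.8 CPM, Tmem54 (0.980) and Emp2 (0.974), of which the first was called (edgeR, adjusted P = 0.0416). Among those of Ntrk2 were D430041D05Rik (r = 0.994) and Mesp2 (0.975). The genes most like Ntrk3 were Rtn4r (r = 0.985), the Nogo receptor and a partner of p75, the synaptic adhesion gene Nlgn3 (0.982) and the protocadherin Pcdh1 (0.979). For Ngfr they were Musk (r = 0.951), Agfg2 (0.947) and Chat (0.924), and for Vgf the zinc transporter Slc39a3 (0.976), Gpr37l1 (0.967) and the glypican Gpc1 (0.966).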

How the data were processed

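MOR-Cre × EGFP-L10a mice gave 8 TRAP-Seq libraries, grouped by the labels of the samples. The authors deposited a table of whole-number counts per RefSeq transcript and library, which were not normalized; the build is mm10 per the labels, and the tool that counted is not given in the sources used here. The study's methods describe Salmon and tximport for its own gene-level matrix, and DESeq2 without sex in the model for its reported test. Transcript rows of a gene repeat the reads they have in common, so each gene was represented by the row with the highest total of its 24488 rows (18939 genes, 3532 with several rows), where the plan had assumed 1 row per gene. No columns (0) were left without a sample. Coordinates, lengths and overlaps came from GENCODE and RefSeq annotations of GRCm38, with lengths matched for 18500 genes, and promoter windows from RefSeq.

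Counts were normalized by TMM and tested with edgeR 4.0.16 (R 4.3.3), quasi-likelihood, with condition in the model and Benjamini-Hochberg adjustment over all genes (called: adjusted P under 0.05). CPM used the TMM library sizes, and RPKM divided CPM by exonic length. Exact two-sided permutation tests used log2(CPM + 0.5) over 70 arrangements. Marker scores were mean log2 CPM with a prior count of 2. Alternatives were DESeq2 1.42.0, limma-voom (limma 3.58.1), other size factors (RLE, upper quartile), other filters (filterByExpr, a minimum of 10 counts per library), robust fitting, sex or a marker score as covariate, summed transcript rows and leaving out each library. The script was tested on simulated data. No batch is given, so none was compared.

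The members and lists were chosen with earlier results of these data known. Named were all 6 members, the called genes or else the 2 genes with the lowest P of each list, and the 3 genes most correlated with each member. Some genes that this rule names are not reported here. Depth was 31151106 to 47582947 counts per library, which leaves counting error mainly in Ntf3 and Ngfr.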

Additional observations from a re-analysis of the deposited data

Results flagged for a closer look

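One value stood far from the others of its group. Ntf3 in morphine replicate 8 was at 3.08 CPM, while the other morphine libraries lay between 2.00 and 2.08 CPM, so that the gap took up 0.924 of the range of the group and exceeded the 95% critical value of Dixon's test. Of 12 groups of 4 libraries tested (6 members in 2 conditions), 1 was flagged, and chance alone flags about 1 in 20. Without this library the log2 fold change of Ntf3 was 1.49 (edgeR).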

How the results depend on the processing

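Each member was refitted under 20 alternatives. Of the 120 log2 fold changes, 107 kept their direction and side of the threshold, 3 passed the threshold and 10 changed sign. The number of genes called in all, 37 by edgeR with condition only, was 498 by DESeq2, 23 by limma-voom, 14 with filterByExpr, 15 with at least 10 counts in every library, 110 with sex in the model, 22 with the sum over transcripts, 1 when the telencephalic score was a covariate, 0 when it was the choroid plexus or the hippocampal score (the last added after seeing the data; 612 and 906 genes passed an unadjusted P of 0.05), and between 0 and 77 with a library left out. It was 0 without morphine replicate 4 or 8 (edgeR; 1697 and 1664 genes passed an unadjusted P of 0.05), 1 without control replicate 1, 20 without control replicate 5, 11 without morphine replicate 7 and 77 without control replicate 6 or morphine replicate 3. Members called were 0, but 2 by DESeq2 (Bdnf at 0.79 and Ntf3 at 1.68) and 1 with sex in the model (Ntf3 at 1.66). The log2 fold change of Ntrk2 was -0.12 with the telencephalic and -0.15 with the choroid plexus score, that of Ntrk3 -0.027 with the choroid plexus score, and that of Vgf -0.21 and -0.71 with these scores. Without 1 library in turn, Ngfr lay between -0.049 and 1.52 and Vgf between -0.12 and 0.42, the latter below 0 without control replicates 1 or 5 and morphine replicates 4 or 8 (-0.117, -0.074, -0.049 and -0.025). The cause was not tested. No paired analysis was possible because the control and morphine libraries share no replicate numbers. At this depth Ntf3 and Ngfr rest on 13 to 193 counts per library.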
